A study of Mus musculus with 6 samples.

Results

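The genes described here are 10 genes of the unfolded protein response and of the response driven by the transcription factor ATF4: Hspa5, Hsp90b1, Xbp1, Herpud1, Atf4, Ddit3, Trib3, Asns, Chac1 and Ddit4. They were taken by gene symbol from the 23412 genes measured by RNA-seq in mouse embryonic stem cells (mESCs), and all 10 were among the 14276 genes with a mean normalized count of at least 5, which were tested. R1 is the parental wild type line, of strain 129Sv, and HN is a line with genotype Htt-/- on the same strain label, in which the promoter and exon 1 of the huntingtin gene Htt were deleted. Each line was sequenced as 3 libraries from cells collected on 17 February, 20 February and 2 March, so that replicates of the same number share a date. Both lines were kept undifferentiated and without feeder cells in serum medium with leukemia inhibitory factor and inhibitors of the FGF and VEGF receptors, of MEK and of GSK3. The labels and methods name no stress treatment. With 1 line for each genotype, an effect of Htt loss and any other difference between the lines cannot be told apart.

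Each library held between 1640391 and 3866717 reads on genes after removal of PCR duplicates. The deleted gene Htt averaged 229 ± 29.0 normalized counts in R1 against 43.5 ± 22.0 in HN (SD, n = 3), which is -2.52 on the log2 scale (adjusted p = 0.0141 by limma). Without R1 replicate 1 the adjusted p of Htt was 0.110 by limma, and without the variance trend 0.325. The summed normalized count of 8 pluripotency markers was 12428 to 17213 in R1 and 14502 to 19869 in HN libraries, and 0 of these markers had a library at 0. Fibroblast markers summed to 82.9 to 186 in R1 and 43.9 to 106 in HN (Dcn had a library at 0), and mesoderm markers to 83.0 to 169 and 159 to 264 (Tbx6 had one). Trophoblast markers summed to 70.3 to 124 in R1 and 121 to 215 in HN (Elf5 and Gata3 had a library at 0). The mesoderm and trophoblast sums both include Eomes, so they are not separate. On each date the pluripotency, mesoderm and trophoblast sums were higher in HN and the fibroblast sum was lower. The part of other cells in the values below was not tested. The 2 libraries of 2 March stood apart. There, 8 primitive endoderm markers summed to 154 to 179 against at most 69.4 on the other dates, and 6 neural progenitor markers to 213 to 244 against at most 97.3. Of 8 fibroblast, 6 trophoblast and 6 mesoderm markers, 4, 4 and 1 were also highest in these libraries. The pluripotency sum was lowest there in each line, at 12428 in R1 and 14502 in HN. More genes had a read there, 20675 in R1 and 20542 in HN against 18133 to 19083 on the other dates. Yet the R1 library of 2 March had the fewest reads, 1640391.

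The unfolded protein response is the reaction of a cell to misfolded protein in the endoplasmic reticulum (ER). The membrane sensors IRE1, PERK and ATF6 detect it, and they raise the transcription factors XBP1, ATF4 and cleaved ATF6, which in turn raise chaperones and degradation factors. PERK acts by phosphorylating the translation factor eIF2α, and so do GCN2 on amino acid shortage, PKR and HRI, so that ATF4 and its targets of amino acid supply answer to several stresses under the name of the integrated stress response.

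The promoters of these genes are shown first because the response is known to work through short DNA elements. RefSeq promoters of build GRCm38.p6, from 250 bases before to 50 bases after the start of transcription, were searched on both strands. The elements were the ER stress response element ERSE (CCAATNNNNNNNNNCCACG), ERSE-II (ATTGGNCCACG), the XBP1-type element UPRE (TGACGTGG) and the element of ATF4 with C/EBP proteins, CARE (TGATGNAA). Of 32817 promoters, 0.119% held ERSE, 0.0366% ERSE-II, 0.676% UPRE and 3.97% CARE. All 10 genes matched a promoter. Hspa5 and Hsp90b1 held ERSE, Herpud1 held ERSE-II and CARE, and Trib3, Asns and Chac1 held CARE. The stretches with a match follow, 5′ to 3′ on the strand of the gene, with the matches in capitals.
Hspa5, ERSE, chr2:34772020-34772048, plus strand: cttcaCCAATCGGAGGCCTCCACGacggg
Hsp90b1, ERSE on both strands, chr10:86705513-86705676, minus strand: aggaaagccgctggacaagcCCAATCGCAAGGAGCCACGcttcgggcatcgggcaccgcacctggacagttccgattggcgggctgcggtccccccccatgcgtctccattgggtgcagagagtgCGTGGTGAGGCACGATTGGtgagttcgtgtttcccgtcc
Herpud1, CARE then ERSE-II, chr8:94386297-94386407, plus strand: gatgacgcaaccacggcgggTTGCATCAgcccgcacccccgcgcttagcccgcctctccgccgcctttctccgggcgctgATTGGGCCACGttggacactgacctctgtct
Trib3, CARE, chr2:152344028-152344057, minus strand: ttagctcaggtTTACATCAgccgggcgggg
Asns, CARE, chr6:7693214-7693243, minus strand: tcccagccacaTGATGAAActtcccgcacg
Chac1, CARE, chr2:119351029-119351076, plus strand: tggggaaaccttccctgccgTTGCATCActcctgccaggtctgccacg
In these sequences, TTGCATCA and TTACATCA are CARE read on the opposite strand. Xbp1, Atf4, Ddit3 and Ddit4 had 0 matches, which says only that these letters are not in this window. The RefSeq start differs from the GENCODE M21 gene start by between 9 and 120 bases for the 6 genes shown, so the place of a match relative to the start depends on the annotation. The Trib3 match begins at base 14 after the RefSeq start, and those of the other genes lie before it.

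Between the lines, 0 of the 10 genes were called, a call being a Benjamini-Hochberg adjusted p under 0.05 by limma with an absolute log2 fold change above 1. Of all tested genes, 35 were called (0.245%). Once the collection date was a term in the fit, 1 of the 10 genes had an adjusted p under 0.05 by limma, against 4.02% of tested genes lower and 5.46% higher. This was Asns, the enzyme that makes asparagine, which was 0.42 lower in HN on the log2 scale and did not pass without the libraries of 20 February (adjusted p = 0.343 by limma). In that fit 5 of the 10 genes had an unadjusted p under 0.05 (Hspa5, Herpud1, Atf4, Trib3 and Asns), and without the date Asns alone did. Among all 14276 tested genes, 3081 did so in that fit and 843 without the date. The chaperone genes Hspa5 and Hsp90b1 and Atf4 itself had higher means in HN, and the other 7 genes had lower means. Over the 10 genes the median log2 fold change was -0.42, and over all tested genes -0.01. Without the date, edgeR and DESeq2 also gave 0 of the 10 an adjusted p under 0.05.

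**Figure D1:**
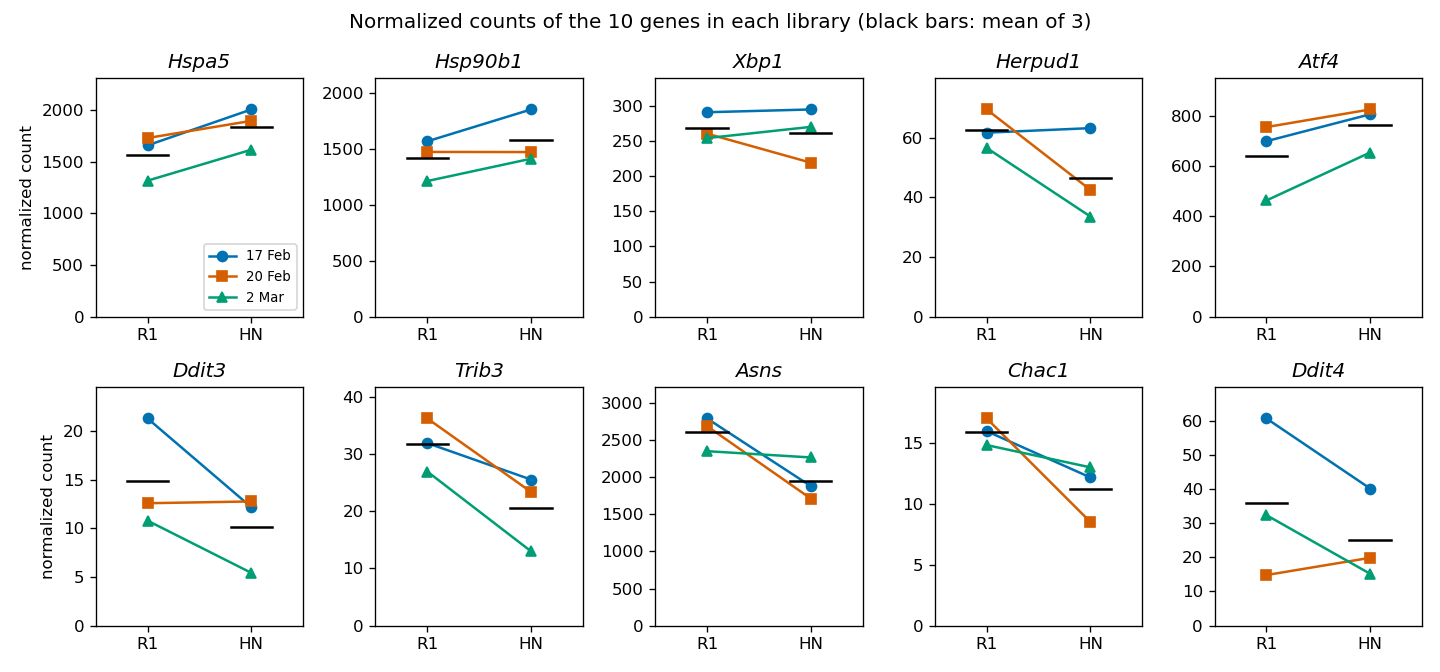
Normalized counts (vertical axes from 0, a separate scale per gene) of the 10 genes in the 3 R1 and 3 HN libraries, with a line joining libraries of the same collection date and a black bar at the mean of each line. Asns, Trib3 and Chac1 are lower in every HN library than in every R1 library, and Hspa5 and Atf4 are higher in HN within each date although the groups overlap.

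Hspa5 encodes BiP, the main ER chaperone of the HSP70 family, which also holds the stress sensors inactive. In the order of the dates, R1 libraries held 1661, 1732 and 1318 normalized counts of Hspa5 and HN libraries 2009, 1898 and 1618. This order of dates is kept for every gene. HN lay above R1 on each date, while the lowest HN library fell below both higher R1 libraries. R1 averaged 1570.2 ± 221 and HN 1842 ± 201 (SD, n = 3), which put HN 0.23 higher on the log2 scale (standard error 0.19, 95% interval -0.18 to 0.65, adjusted p = 1 by limma). With the date as a block the interval was 0.06 to 0.41 and the adjusted p was 0.0818. The gene lies on chromosome 2 from 34771970 to 34777547 on the plus strand of GRCm38 (GENCODE M21).

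Hsp90b1 encodes GRP94, the ER chaperone of the HSP90 family. It had 1567, 1472 and 1212 normalized counts in R1 and 1852, 1471 and 1411 in HN libraries. The lines overlapped, and the pair of 20 February was level. HN minus R1 came to 0.15 on the log2 scale (standard error 0.19, 95% interval -0.27 to 0.57, adjusted p = 1 by limma, 0.326 with the block). In GENCODE M21 the gene (chromosome 10, 86690209 to 86705509, minus strand) shares 9.75% of its 50-base stretches with 3 overlapping transcripts. The library kit does not mark strand, so reads there cannot be told apart.

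Xbp1 and Herpud1 stand for the regulation and degradation arms. XBP1 is the transcription factor made active when IRE1 splices its mRNA, and a gene total does not separate the spliced form. Xbp1 had 292, 261 and 255 normalized counts in R1 and 296, 220 and 271 in HN libraries, with overlap of the lines and no common direction across dates. Its log2 fold change of -0.05 had a 95% interval from -0.47 to 0.38, and from -0.28 to 0.18 with the block (adjusted p = 0.876 by limma). Xbp1 lies on chromosome 11 from 5520659 to 5525893, on the plus strand.

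Herpud1 encodes an ER membrane protein of the machinery that sends misfolded proteins to degradation. It had 61.7, 69.5 and 56.6 normalized counts in R1 and 63.3, 42.5 and 33.6 in HN libraries. The pair of 17 February was level, and HN was lower on both later dates. R1 averaged 62.6 ± 6.51 and HN 46.5 ± 15.2 (SD, n = 3), or -0.47 on the log2 scale (standard error 0.28, adjusted p = 1 by limma, 0.155 with the block). Without the libraries of 17 February the blocked fit gave a log2 fold change of -0.72 and an adjusted p of 0.0450 by limma. Herpud1 lies on chromosome 8 (94386438 to 94395377, plus strand), where the 751 tested genes had a median log2 fold change of -0.22, and its difference from that median was -0.25.

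Atf4 is the transcription factor of the integrated stress response, and its protein is controlled mainly by translation, which RNA-seq does not measure. R1 libraries held 700.5, 757 and 464 normalized counts and HN libraries 808, 827 and 655. HN was higher on each date, yet the HN library of 2 March fell below the R1 libraries of the other dates. R1 averaged 640.3 ± 156 and HN 763 ± 94.2 (SD, n = 3), with HN 0.28 higher on the log2 scale (standard error 0.22, adjusted p = 1 by limma). The block narrowed the 95% interval from -0.20 to 0.75 to 0.08 to 0.47, with an adjusted p of 0.0632 by limma. Atf4 lies on chromosome 15 (80255184 to 80257541, plus strand).

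Hspa5 and Atf4 were the 2 genes of the 10 that were higher in HN on all 3 dates, and Trib3, Asns and Chac1 the 3 that were lower on all 3 dates. Of all tested genes, 20.3% were higher and 21.1% lower on all 3 dates. The lines did not overlap for 3 of the 10 genes, all lower in HN, and for 0 higher. Among tested genes 5.54% lay wholly lower and 5.23% wholly higher. The highest HN and lowest R1 libraries held 2270.1 and 2355 normalized counts for Asns, 25.6 and 27.0 for Trib3, and 13.0 and 14.8 for Chac1. An exact permutation test of 3 against 3 libraries cannot give a two-sided p below 0.1.

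Asns had 2797, 2693 and 2355 normalized counts in R1 and 1883, 1715 and 2270.1 in HN libraries. Every HN library lay below every R1 library. The same-date differences on the log2 scale were -0.57, -0.65 and -0.05, so the pair of 2 March was close to level. R1 averaged 2615 ± 231 and HN 1956 ± 284 (SD, n = 3), 25.2% lower. On the log2 scale this was -0.42 (standard error 0.19, 95% interval -0.83 to -0.01). Without the date the adjusted p was 0.817 by limma (unadjusted 0.0435), 0.725 by edgeR and 0.455 by DESeq2. With the date as a block, the standard error was 0.10 and the interval -0.62 to -0.23. The adjusted p was then 0.00255 by limma, 4.5e-04 by edgeR and 0.00368 by DESeq2, each with Benjamini-Hochberg adjustment. This result rests in part on 20 February. Without the libraries of that date the blocked log2 fold change was -0.31 (adjusted p = 0.343 by limma). It was -0.35 without those of 17 February (adjusted p = 0.00811 by limma) and -0.61 without those of 2 March (adjusted p = 7.6e-12 by limma). Each of these fits holds only the same-date pairs of the remaining dates and takes part of its spread from other genes. A small adjusted p there adds no strength to the full fit. Asns lies on chromosome 6 from 7675169 to 7693254 on the minus strand.

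Trib3 encodes a pseudokinase that is an ATF4 and CHOP target and binds ATF4. It had 31.9, 36.2 and 27.0 normalized counts in R1 and 25.6, 23.4 and 13.0 in HN libraries. No HN library reached the lowest R1 library. R1 averaged 31.7 ± 4.65 and HN 20.6 ± 6.71 (SD, n = 3), or -0.64 on the log2 scale (standard error 0.35, adjusted p = 1 by limma, 0.149 with the block). This was the largest difference of the 10 in size, and it did not pass the test. Trib3 lies on chromosome 2 from 152337422 to 152344032, on the minus strand.

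Chac1 encodes an enzyme that degrades glutathione and is induced by ATF4. It had 16.0, 17.0 and 14.8 normalized counts in R1 and 12.2, 8.51 and 13.0 in HN libraries, also without overlap. A log2 fold change of -0.49 had a standard error of 0.43 and an adjusted p of 1 by limma (0.489 with the block). Only 10 to 23 reads per library stood behind these values, and the largest gap within a date was on 20 February. Chac1 lies on chromosome 2 (119351229 to 119354381, plus strand).

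Ddit3 encodes CHOP, the transcription factor of prolonged stress, and was the gene with the fewest reads, 5 to 20 per library. Its normalized counts were 21.3, 12.6 and 10.8 in R1 and 12.2, 12.8 and 5.42 in HN libraries. The lines overlapped. A log2 fold change of -0.54 had a 95% interval from -1.68 to 0.60 (adjusted p = 1 by limma, 0.470 with the block), which holds both a 2-fold decrease and no change. Ddit3 (chromosome 10, 127290774 to 127296288, plus strand) shares 4.38% of its 50-base stretches with other transcripts, among them those of Mars.

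Ddit4 encodes REDD1, an inhibitor of the growth kinase complex mTORC1 that is induced by several stresses. It had 60.7, 14.8 and 32.3 normalized counts in R1 and 40.2, 19.8 and 15.2 in HN libraries. The spread within each line was wide, and the libraries of 17 February were the highest of both lines. HN minus R1 was -0.41 on the log2 scale (standard error 0.50, adjusted p = 1 by limma, 0.438 with the block), and 0.066 without R1 replicate 1. Ddit4 lies on chromosome 10 from 59949669 to 59951834, on the minus strand.

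Several of these differences depended on 1 library. Without R1 replicate 3, the log2 fold change of Atf4 was 0.061 in place of 0.28, and that of Hspa5 was 0.11 in place of 0.23. Hsp90b1 stood at 0.032 without HN replicate 1. Without HN replicate 3, Trib3 was at -0.35, Herpud1 at -0.26 and Ddit3 at -0.18, and without HN replicate 2 Chac1 was at -0.32. Asns ran from -0.54 to -0.33 over the 6 libraries left out in turn.

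**Figure D2:**
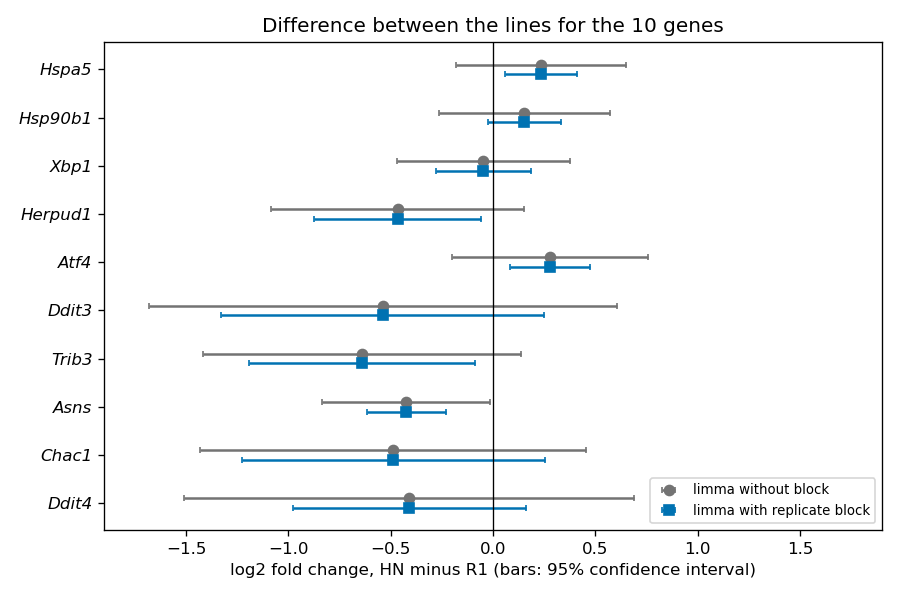
Log2 fold change, HN minus R1, of the 10 genes with 95% intervals from limma without and with the collection date as a block. With the block, the interval of Asns runs from -0.62 to -0.23, and only Asns has an adjusted p under 0.05.

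Per kilobase of annotated exon, the levels of the 10 genes spanned about 2 orders of magnitude. In R1 the order of normalized counts per kilobase was Asns at 956 ± 84.5, Hspa5 at 371 ± 52.3, Hsp90b1 at 351 ± 45.6, Atf4 at 272 ± 66.0 and Xbp1 at 82.9 ± 6.08 (SD, n = 3). Below them came Herpud1 at 26.8 ± 2.79, Ddit4 at 20.5 ± 13.2, Trib3 at 14.9 ± 2.19, Chac1 at 9.74 ± 0.67 and Ddit3 at 8.69 ± 3.28. The chaperones Hspa5 and Hsp90b1 thus stood near the top of the order, and Ddit3 and Chac1 at the bottom. Hspa5 and Hsp90b1 differed by less than the larger of their SDs, as did Herpud1 and Ddit4, Ddit4 and Trib3, and Chac1 and Ddit3. The order was the same in HN mESCs, where Asns stood at 715 ± 104 and Ddit3 at 5.90 ± 2.38.

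Collection dates were compared by an F test of the date within limma, with the line as a term. It gave an adjusted p under 0.05 for 4 of the 10 genes, no larger a share than the 46.0% of all tested genes. These were Atf4 (adjusted p = 0.00113 by limma), Ddit4 (0.00212), Hsp90b1 (0.0146) and Hspa5 (0.0169). Relative to the mean of the earlier dates, the mean of 2 March was 0.724 times for Atf4, 0.805 times for Hspa5 and 0.825 times for Hsp90b1. Ddit4 followed another course, with means of 50.4, 17.3 and 23.8 normalized counts on the 3 dates. Asns did not pass this test (adjusted p = 0.681 by limma) and stood at 1.02 times on 2 March. The libraries of 2 March are those with the raised endoderm and neural marker sums. Leaving out replicate 2 of either line kept Atf4 and Ddit4 as the 2 genes past the threshold. With quantile normalization 6 genes passed, Asns, Ddit3, Ddit4, Hsp90b1, Trib3 and Xbp1, but neither Hspa5 nor Atf4. Asns also passed without R1 replicate 3.

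Around the 10 genes, 7 lists of other genes of the response held 108 genes, of which 107 were tested. Without the block 0 of them had an adjusted p under 0.05 by limma or edgeR, and Dnajc3 alone passed by DESeq2 (adjusted p = 0.0405). By limma 8 had an unadjusted p under 0.05, as did 843 of all 14276 tested genes. With the block 15 passed by limma, 8 higher and 7 lower in HN, where 5.46% of all tested genes were higher and 4.02% lower. These shares are the background for each list below. By edgeR with the block 10 list genes passed higher and 10 lower, and by DESeq2 with the block 5 and 4. Os9 and Tnfrsf10b did not pass by DESeq2 with the block, and 2 genes of the amino acid list passed lower there. The median log2 fold change of the 107 genes was -0.05, and 48.5% of all tested genes lay above 0. Of the 15, Eif2b5, Dnajc3, Ero1l, Phgdh and Slc1a5 passed without each of the dates. The other 10 did not pass without at least 1 date: Pdia3 without any of the 3, Aldh1l2 and Eif4ebp1 without 17 or 20 February, Os9 and Slc7a5 without 17 February, and Calr, Psat1, Atf5, Tnfrsf10b and Aars without 20 February. Without R1 replicate 3 the difference of Calr was 0.072, of Pdia3 0.20 and of Slc1a5 0.47, and without HN replicate 1 that of Ero1l was 0.40 and of Os9 0.31. Eif4ebp1 was at -0.21 without R1 replicate 1, and Aars at -0.25 without R1 replicate 2. The differences given for these genes are log2 fold changes, HN minus R1, and their adjusted p-values are those of the blocked limma fit. Of the 15 genes, 4 lie on chromosome 8 and 3 on chromosome 14, whose genes as a whole were shifted, and 8 of the 96 tested genes on other chromosomes passed, 4 in each direction.

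Of the 10 sensors and signal relays 0 passed, with Ern1 (IRE1) at the top (log2 fold change 0.32, adjusted p = 0.589 by limma) and Traf2 at the bottom (-0.59, adjusted p = 0.265). Among 15 genes of the eIF2 kinases, eIF2 and its phosphatases, 2 rose and 0 fell. Dnajc3, the P58IPK co-chaperone that inhibits PERK, had 110, 107 and 117 normalized counts in R1 and 234, 191 and 177 in HN libraries, with no overlap. Its log2 fold change was 0.83 (adjusted p = 3.6e-05 by limma). Eif2b5, the catalytic subunit of the eIF2B exchange factor, rose by 0.60 (adjusted p = 1.4e-05 by limma). Ppp1r15a, the stress-induced GADD34 phosphatase subunit, was at -0.38 (adjusted p = 0.187 by limma).

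Of 19 ER chaperones and folding enzymes, 3 rose and 0 fell, with a median log2 fold change of 0.13. Ero1l, the oxidase that feeds disulfide formation, was 0.64 higher (adjusted p = 1.7e-04 by limma). Calr, the lectin chaperone calreticulin, was 0.35 higher (adjusted p = 0.00710) and the disulfide isomerase Pdia3 0.34 higher (adjusted p = 0.0413 by limma, but 0.243 by DESeq2 with the block). Sdf2l1, a partner of ER chaperones, was at -0.43 with an adjusted p of 0.0829 by limma. Of 17 genes of ER-associated degradation, Os9, a lectin that picks misfolded glycoproteins, rose by 0.54 (adjusted p = 0.0146 by limma), and 0 fell.

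The ATF4 targets of amino acid supply and redox, the list closest to Asns, had 17 of 19 log2 fold changes below 0 and a median of -0.18. In this list 4 genes fell and 1 rose. Phgdh, the first enzyme of serine synthesis, had 398, 320.3 and 356 normalized counts in R1 and 213, 250.2 and 250.2 in HN libraries, with no overlap (log2 fold change -0.59, adjusted p = 5.6e-04 by limma). Psat1, the next enzyme of that pathway, fell by 0.50 (adjusted p = 8.3e-04 by limma). Aldh1l2, a mitochondrial folate enzyme, fell by 1.10 on the log2 scale (adjusted p = 0.0290 by limma), and the neutral amino acid transporter gene Slc7a5 on chromosome 8 fell by 0.47 (adjusted p = 0.0116). Slc1a5, the glutamine transporter, went the other way and rose by 0.85 (adjusted p = 7.0e-06 by limma). Counts of fallen genes in this list were 2, 2 and 7 without the libraries of 17 February, 20 February and 2 March. Of all 14276 tested genes, 395, 187 and 869 were lower in the same fits.

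Of 14 tested ATF4-linked transcription factors and stress outputs, 2 fell and 1 rose. Atf5, a transcription factor related to ATF4, had 39.4, 47.3 and 37.7 normalized counts in R1 and 23.1, 16.3 and 22.7 in HN libraries (log2 fold change -0.98, adjusted p = 0.0106 by limma). Eif4ebp1, a repressor of cap-dependent translation on chromosome 8, fell by 0.35 (adjusted p = 0.0139 by limma), and the death receptor gene Tnfrsf10b on chromosome 14 rose by 0.54 (adjusted p = 0.0285). Bcl2l11, which encodes the pro-death protein BIM, was at 0.56 with an adjusted p of 0.253 by limma. Among the 13 cytosolic tRNA synthetases, 12 had log2 fold changes below 0 (median -0.18). Only Aars, on chromosome 8, passed, at -0.40 (adjusted p = 0.00327 by limma), and Cars was highest at 0.03 (adjusted p = 0.924). The count of fallen synthetases was 1, 0 and 5 without the first, middle and last date. In these fits 395, 187 and 869 of all 14276 tested genes were lower.

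**Figure D3:**
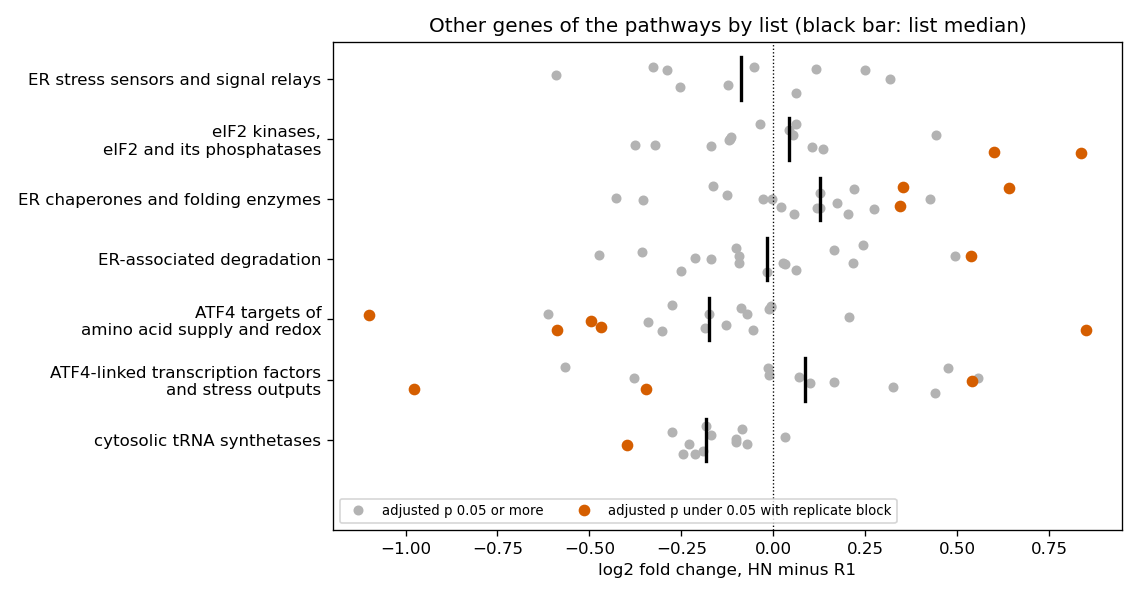
Log2 fold change, HN minus R1, of the 107 tested genes of the 7 lists (points, spread vertically at random), in orange where the adjusted p is under 0.05 in the blocked limma fit and with a black bar at each median. Points of the amino acid list and of the tRNA synthetases lie mostly below 0 (medians -0.18 and -0.18), and those of the ER chaperones mostly above (median 0.13).

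Position in the genome went with some of these values. Genes of chromosome 8 had a median log2 fold change of -0.22, with 20.9% of 751 above 0, and genes of chromosome 14 a median of 0.25, with 78.5% of 479 above 0. Of the 10 genes, Herpud1 alone lies on chromosome 8 and 0 lie on chromosome 14. Asns lies on chromosome 6, whose median was -0.06, and Atf4 on chromosome 15, with a median of -0.03. Dnajc3, Ero1l and Tnfrsf10b lie on chromosome 14 and rose, while Slc7a5, Eif4ebp1 and Aars fell and Calr rose on chromosome 8. What part the chromosome has in these values was not tested.

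**Figure D4:**
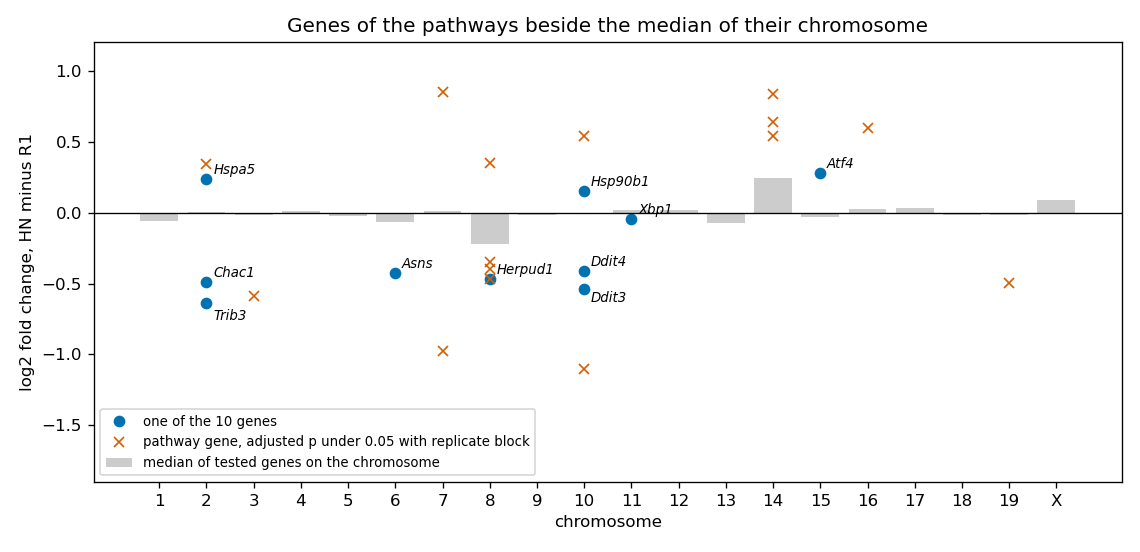
Median log2 fold change, HN minus R1, of the tested genes of each chromosome (bars), with the 10 genes as circles and the 15 list genes with an adjusted p under 0.05 in the blocked fit as crosses. Chromosome 8 is lowest at -0.22 and chromosome 14 highest at 0.25, and Asns lies on chromosome 6 at -0.06.

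The values were also set beside those of all tested genes that hold the same promoter element, the 10 genes included. CARE stood in 289 of 11265 tested genes with a promoter, whose median log2 fold change was 0.01, with 19 higher and 7 lower in the blocked fit. Of all tested genes, 5.46% were higher and 4.02% lower in that fit. The 4 of the 10 genes with CARE (Herpud1, Trib3, Asns and Chac1) had a median of -0.48, and all 10 together -0.42. In the lists, CARE stood in 5 of 9 tRNA synthetase promoters (median -0.19), in 3 of 15 amino acid supply promoters (median -0.19) and in 5 of 13 promoters of ATF4-linked factors and outputs, whose 4 tested genes had a median of 0.21. Over all lists the 13 tested genes with CARE had a median of -0.10, and 0 ER chaperone promoters of 16 held it. ERSE stood in 5 of those 16, and the 20 tested genes with ERSE had a median of 0.18, with 4 higher and 0 lower in the blocked fit. Of these 4, 2 are the list genes Dnajc3 and Calr already given, on the shifted chromosomes 14 and 8. Hspa5 and Hsp90b1, the ERSE genes of the 10, had a median of 0.19.

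Among 7659 genes with a mean of at least 50, those with the profile most like Hspa5 across the 6 libraries were Gpbp1l1, Fem1b and Arhgef12, with root mean square differences of 0.027, 0.030 and 0.036 on the log2 scale. Hspa5 itself varied by 0.19 about its mean. Tgif1, Cenpq and Slc25a28 were nearest to Atf4 (0.035, 0.053 and 0.057). For Asns these were Fbxo6, Hist2h2bb and Lonp2 (0.054, 0.057 and 0.059), against its own variation of 0.25. Nearest to Trib3 were Ccbl2, Tango6 and Mettl8 (0.095, 0.14 and 0.16), against its own larger variation of 0.45. All 12 are named for likeness over these libraries alone, and 0 of them are genes of the 10. Ddit3, Trib3, Chac1 and Ddit4 have means under 50, so they could not be named as neighbours.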

How the data were processed

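Total RNA of R1 and HN mESCs was made into libraries with the Illumina TruSeq RNA kit v2 and sequenced as paired-end reads. For these libraries the authors used STAR for alignment to mm10/GRCm38, Picard for removal of PCR duplicates, HTSeq for counts on exons and DESeq2 for size factors. The deposited values are therefore a normalized signal per gene, called normalized counts here. Tool versions and the gene annotation are not given in the sources used here. Unused columns of per-sample values numbered 0. In 27 rows a date stands in place of a gene name, and these are named nowhere. Values were whole multiples of that of 1 read in 100% of cases (tolerance 0.01 read), so reads were recovered for depth and for count models. Since no molecular identifiers were used, reads may repeat a molecule.

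Values were taken as log2(value + 1) and the lines compared with limma 3.58.1 in R 4.3.3 with a variance trend, over 14276 genes with a mean of at least 5. The log2 fold change thus understates changes of low genes. Called genes have a Benjamini-Hochberg adjusted p under 0.05 with an absolute log2 fold change over 1. The study's methods name no block, so the main comparison has none. Replicate numbers pair the libraries because the labels give both lines the same collection date. Deviations from the line means correlated at 0.25 to 0.77 within a date and at -0.71 to 0.34 across dates. These deviations cancel out within each line, so the values depend on each other and are no separate test of the pairing. R1 replicate 1 correlated at 0.25 with HN replicate 1 and at 0.34 with HN replicate 2. Alternatives were the replicate block, edgeR 4.0.16 and DESeq2 1.42.0 on the recovered reads, other pseudocounts, filters and scalings, no variance trend, and leaving out each library or date. limma with and without the block, and edgeR and DESeq2 without it, were tested on simulated data. The simulated libraries held differences between lines but none between dates. They therefore cannot show how the blocked fit behaves where dates differ, as they do here. The libraries are separate collections of 1 line each, so p-values concern the spread between collections. limma draws the spread of each gene towards a trend over all genes. A blocked p-value therefore does not measure the spread of that gene's own same-date differences alone.

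The 10 genes, the lists and the tests were chosen with earlier results of these data known. Named are the 10 genes, Htt, and of each list the highest and lowest gene and those with an adjusted p under 0.05 with the block (at most 5 per direction). A gene that this rule names is not reported here. For Hspa5, Atf4, Trib3 and Asns the 3 nearest profiles are also named. Gene positions are from GENCODE M21 and promoters from RefSeq, both on GRCm38.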

Additional observations from a re-analysis of the deposited data

How the results depend on the processing

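Across 21 alternatives, 0 of the 10 genes were called and Hspa5, Hsp90b1, Herpud1, Atf4, Asns, Trib3, Chac1 and Ddit3 kept their direction wherever they could be fitted. Without any 1 library, the log2 fold change of Ddit4 ran from -0.92 to 0.066 (without R1 replicate 1) and that of Xbp1 from -0.14 to 0.074 (without HN replicate 2), with 0.012 without R1 replicate 1. Xbp1 was also at 0.054 with the block and 20 February left out. The cause was not tested. Low counts limit Ddit3, Chac1, Trib3 and Ddit4, and DESeq2 gave no adjusted p for Ddit3 and Chac1, nor with the block for Trib3.

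The replicate block, that is the pairing by date, called 130 genes higher and 148 lower against 17 and 18 without it. It gave an adjusted p under 0.05 to 1 of the 10 genes and to 15 genes of the 7 lists, of which Aldh1l2 was called. edgeR with the block called 132 and 152 genes, with 1 of the 10, 20 list genes and 2 list calls (Aldh1l2 and Atf5). DESeq2 called 47 and 33, with 1 list gene past the threshold, and with the block 72 and 55, with 1 of the 10 and 9 list genes. The 10 genes and list genes that passed need only an adjusted p under 0.05, while called genes also pass the fold change. At that adjusted p alone, the blocked fits gave 780 genes higher and 574 lower by limma. They gave 920 and 685 by edgeR, and 334 and 178 by DESeq2. DESeq2 without the block gave 68 and 44. Median centring called 27 higher, and without the variance trend 0 were called higher and 0 lower, where 767 genes had an unadjusted p under 0.05 by limma. Without any 1 library, 3 to 31 genes were called higher and 4 to 26 lower. With the block and without the libraries of 17 February, 20 February and 2 March, 123, 95 and 187 genes were called higher and 168, 85 and 193 lower. In the same order 2, 0 and 1 of the 10 genes and 12, 7 and 25 list genes passed, and 1, 0 and 2 list genes were called. Of all tested genes, 729, 299 and 852 passed higher and 395, 187 and 869 lower, at any fold change. Without the genes of chromosomes 8 and 14, an alternative chosen after seeing the data, 8 list genes passed with the block.

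Genes differing between dates numbered 6569, but 4090 with a mean of at least 50, 4203 with quantile normalization and 0 by limma without the variance trend (5326 at an unadjusted p under 0.05), where 0 of the 10 genes passed (1 unadjusted). Leaving out 1 library gave 3270 to 7661 genes and 2 to 5 of the 10.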
